A study of Bos taurus with 8 samples.

Results

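The mitochondrial ribosomal proteins were examined in fetal liver of Japanese Black cattle whose dams received a low or a high plane of nutrition. The genes were those on the array whose symbol begins with MRPL or MRPS followed by a digit, together with DAP3, and they were found through the RefSeq accession printed for each probe. Of 12603 genes matched to the array, 76 met this rule, 46 with large subunit symbols (MRPL) and 30 with small subunit symbols (MRPS and DAP3). They were measured by 129 of the 43653 probes on the array. All 76 genes were well above background on all 8 arrays, and 0 of their probes were saturated. MRPL36, MRPL40 and MRPL55 met the rule by symbol but had no matched probe.

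The mitochondrial ribosome translates the few messages encoded by mitochondrial DNA, all of them for subunits of the respiratory chain and ATP synthase. Its RNA comes from mitochondrial DNA, but all of its proteins are encoded in the nucleus, made on cytosolic ribosomes and imported. Some of the proteins descend from bacterial ribosomal proteins, and others, called mitochondria-specific here, have no bacterial counterpart. Hepatocytes, the main cells of liver, are rich in mitochondria.

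The LN group comprised 4 fetuses (L5, L6, L8 and L9) of dams given 60% of their nutritional requirement through pregnancy, and the HN group 4 fetuses (L1, L2, L3 and L10) of dams given 120%. Liver was taken at day 260 ± 8.3 of gestation, 8.5 months by the sample labels, and no group was fed at requirement. According to the methods, the lightest LN fetuses and the heaviest HN fetuses were chosen, so maternal diet and fetal body weight cannot be told apart. The sample labels give 1 fetus per array, while the design text mentions RNA pooled by group, and the arrays were treated as 8 fetuses. The arrays of each group shared a slide of their own, so slide and group cannot be told apart either. Each array held 43803 spots other than controls, of which 32635 to 34369 exceeded background, and the LN array of fetus L6 had the fewest such spots and the lowest median log2 signal before normalization (5.97, against 6.09 to 6.71 on the others). The 8 hepatocyte markers on the list (ALB, AFP, TTR, APOA1, SERPINA1, TF, FGB and HNF4A) were all detected. Most of them lay at the top of the signal range, where quantile normalization leaves little room for a difference, so their median LN minus HN difference of 0.013 on the log2 scale says little about the share of hepatocytes. Of those lower in the range, AFP differed by 0.34 (standard error 0.36), FGB by -0.020 (standard error 0.16) and HNF4A by -0.070 (standard error 0.16). Values below are log2 signals after quantile normalization, where a difference of 1 is a doubling, and a positive difference means a higher signal in LN. A gene was represented by its brightest probe. Signals of different probes are not set against each other, because probes bind with different strength.

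Mitochondrial ribosomal protein genes were mostly a little higher in the LN group, and 0 of them passed the test after adjustment. The signal was higher in LN for 59 of the 76 genes (77.6%), compared with 51.6% of 10861 detected genes. Their median difference was 0.091, or 1.07-fold, compared with 0.0075 over all detected genes. MRPL15, MRPL50 and MRPL44 were more than 1.25-fold higher in LN, and 0 genes were more than 1.25-fold lower, whereas 7.82% and 8.63% of all detected genes passed these limits.

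By limma with Benjamini-Hochberg adjustment over 33440 detected probes, 0 of 76 genes and 0 of all probes (0% of probes) reached an adjusted p of 0.05. The lowest adjusted p of a mitochondrial ribosomal protein gene was 0.760. At an unadjusted p of 0.05, MRPL50, MRPL43 and MRPL15 were higher in LN, which is 3.95% of the genes beside 3.3% of all detected genes, and 0 were lower, beside 2.75%. This number was 1 (1.32% of the genes) without LN fetus L8 or without HN fetus L1, beside 3.01% and 2.93% of all detected genes, and 5 (6.58%) without LN fetus L6, beside 3.37%. With the position on the slide as a block it was 2 (2.63%, beside 2.43%), as MRPL43 no longer reached this limit. The standard errors of the differences lay between 0.10 and 0.21. The difference exceeded its standard error upwards for 29 of the 76 genes and downwards for MRPL23 only, whereas it did so for 21.2% and 18.2% of all detected genes. In whole liver, fewer cells of a type cannot be told apart from less RNA per cell.

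**Figure D1:**
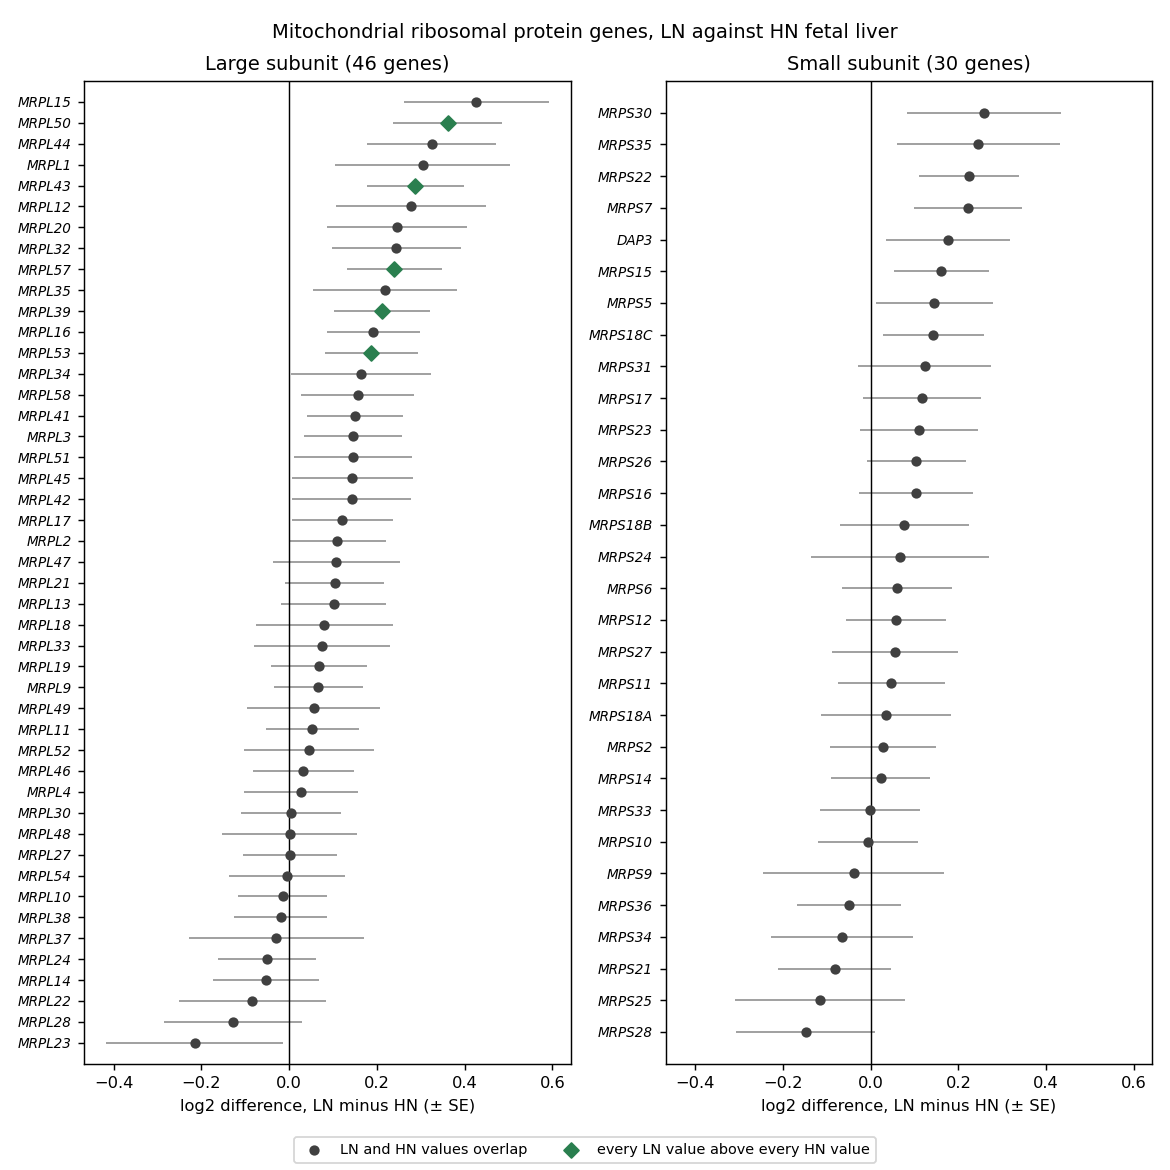
LN minus HN difference of log2 signal for each gene, with large subunit symbols on the left and small subunit symbols on the right, as points with ± 1 standard error from limma (4 LN and 4 HN fetuses). Most points lie to the right of 0, from -0.22 for MRPL23 to 0.43 for MRPL15, and diamonds mark the 5 large subunit genes whose LN values all lie above their HN values.

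For 5 genes every LN fetus lay above every HN fetus, and for 0 genes every LN fetus lay below, whereas 2.59% and 1.56% of all detected genes separated in these directions. All 5 (MRPL50, MRPL43, MRPL57, MRPL39 and MRPL53) have large subunit symbols and encode mitochondria-specific proteins. Such a separation by itself sets the exact permutation p at 0.0286, the smallest that 4 fetuses in each group can give, so this p adds nothing to it and is not repeated for these genes.

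The largest of these differences was that of MRPL50 (NM_001046180), a mitochondria-specific protein of the large subunit. Its signals were 9.99, 9.67, 9.67 and 9.72 in LN fetuses L5, L6, L8 and L9, and 9.45, 9.56, 9.31 and 9.30 in HN fetuses L1, L2, L3 and L10. LN fetus L5 stood highest, and the other LN fetuses lay close together above the highest HN fetus, L2. The difference was 0.36 (standard error 0.12), a 1.28-fold higher signal in LN (limma adjusted p = 0.760). Leaving out any single fetus kept it between 0.29 and 0.41.

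MRPL43 (NM_174563), another mitochondria-specific protein, had signals of 11.89, 11.87, 12.11 and 11.99 in LN and 11.72, 11.75, 11.69 and 11.54 in HN, in the same order of fetuses. Its SD was 0.11 in LN and 0.093 in HN, and the difference of 0.29 (standard error 0.11, limma adjusted p = 0.770) exceeded both SDs. With the position on the slide as a block the standard error was 0.14 and the limma adjusted p was 0.940. The other probes of MRPL43 differed by 0.33 and 0.27.

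MRPL57 (NM_001034787) had signals of 9.28, 9.27, 9.30 and 9.19 in LN and 8.99, 9.06, 8.88 and 9.16 in HN. The LN fetuses lay within a narrow band (SD 0.046), and HN fetus L10 came just below it. The difference was 0.24 (standard error 0.11, limma adjusted p = 0.785), and the other probe gave 0.25.

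MRPL39 (NM_001080730), which lies near the exit of the tunnel through which the new protein leaves the ribosome, had signals of 10.62, 10.40, 10.41 and 10.35 in LN and 10.29, 10.30, 10.18 and 10.17 in HN. The gap between LN fetus L9 and HN fetus L2 was narrow. The difference was 0.21 (standard error 0.11, limma adjusted p = 0.790).

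MRPL53 (NM_001045926) had signals of 11.92, 11.92, 11.82 and 11.95 in LN and 11.74, 11.57, 11.78 and 11.78 in HN, a difference of 0.19 (standard error 0.11, limma adjusted p = 0.799). Its 4 probes did not run the same way. The brightest, used here, gave 0.19, and the others gave 0.47, -0.036 and -0.15.

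**Figure D2:**
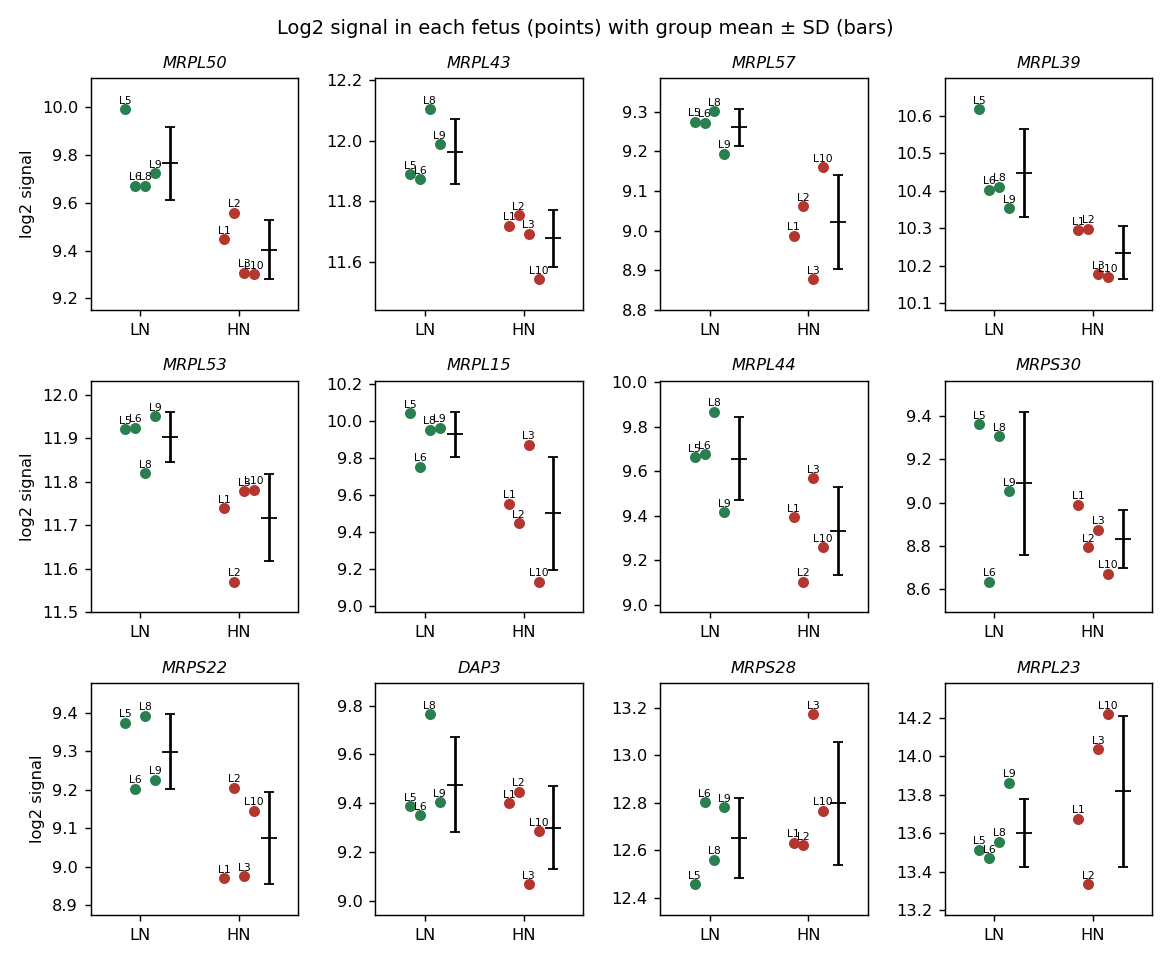
Log2 signal of 12 genes in each fetus (points labelled with the fetus), with the mean and SD of the 4 LN and 4 HN fetuses as bars; each panel has its own vertical scale. The LN and HN points separate for MRPL50, MRPL43, MRPL57, MRPL39 and MRPL53 and overlap for the other 7 genes.

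The proteins of the large subunit with the greatest differences came from both classes. MRPL15 (NM_001075445), a homologue of a bacterial protein of the large subunit, had the largest difference of all 76 genes, 0.43 or 1.34-fold (standard error 0.17, limma p = 0.0303, adjusted p = 0.774, exact permutation p = 0.0571). Its signals were 10.04, 9.75, 9.95 and 9.96 in LN and 9.55, 9.45, 9.87 and 9.13 in HN. HN fetus L3 lay among the LN fetuses, and HN fetus L10 lay far below the rest. Without L10 the difference was 0.30, and without L3 it was 0.55. The other probe of MRPL15 gave 0.31.

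MRPL44 (NM_001046321), a mitochondria-specific protein at the tunnel exit that belongs to the ribonuclease III family by its fold, had signals of 9.66, 9.68, 9.87 and 9.41 in LN and 9.39, 9.10, 9.57 and 9.26 in HN. The groups overlapped, as LN fetus L9 lay below HN fetus L3. The difference was 0.32 (standard error 0.15, limma adjusted p = 0.785), and the other probe gave 0.44. MRPL1 (NM_001101844), of the mobile stalk at which spent transfer RNA leaves, differed by 0.30 (standard error 0.20, limma adjusted p = 0.826), but this rested on LN fetus L5, at 7.64. The other LN fetuses had signals from 6.65 to 6.97 and the HN fetuses from 6.67 to 6.82, and without L5 the difference was 0.11.

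At the other end of the large subunit were MRPL23, MRPL28 and MRPL22, all homologues of bacterial proteins. MRPL23 (NM_001077884), at the tunnel exit, had signals of 13.51, 13.47, 13.56 and 13.86 in LN and 13.68, 13.34, 14.04 and 14.22 in HN. HN fetuses L3 and L10 stood above all others while HN fetus L2 was the lowest of all. The difference was -0.22, or 1.16-fold higher in HN (standard error 0.20, limma adjusted p = 0.878), and it was -0.082 without L10 but -0.38 without L2. The difference was -0.13 for MRPL28 (standard error 0.16) and -0.084 for MRPL22 (standard error 0.17), which lines the tunnel. Both were smaller than their standard errors, and leaving out single fetuses gave -0.24 to -0.053 for MRPL28 and -0.19 to 0.0077 for MRPL22.

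The stalk that recruits translation factors is built by MRPL10, MRPL11 and MRPL12. MRPL12 had signals of 9.91, 9.31, 9.73 and 9.74 in LN and 9.68, 9.40, 9.12 and 9.38 in HN, a difference of 0.28 (standard error 0.17, limma adjusted p = 0.816). LN fetus L6 lay among the HN fetuses, and without it the difference was 0.40, while without HN fetus L3 it was 0.19. MRPL11 differed by 0.052 (standard error 0.11; 0.029 to 0.11 with single fetuses left out) and its other probe by -0.14, and MRPL10 differed by -0.015 (standard error 0.10). At the tunnel exit, 6 of 9 genes were higher in LN with a median difference of 0.12, running from MRPL44 at the top to MRPL23 at the bottom. MRPL45, the protein that ties the ribosome to the inner membrane, differed by 0.14 (standard error 0.14), with 0.071 without LN fetus L8 and 0.22 without LN fetus L6. In the central protuberance, the crest of the large subunit, 3 of 4 genes were higher with a median difference of 0.017. MRPL58, a hydrolase that frees stalled peptides, differed by 0.16 (standard error 0.13), and by 0.096 without HN fetus L10.

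The small subunit genes were also mostly higher in LN. The signal was higher for 22 of 30 (73.3%) with a median difference of 0.063 (1.04-fold), and 0 reached an unadjusted p of 0.05 (beside 3.3% higher and 2.75% lower among all detected genes) or separated the groups (beside 2.59% and 1.56%). Of the large subunit genes, 37 of 46 (80.4%) were higher with a median of 0.11 (1.08-fold). The medians of the subunits differed by 0.043. Per fetus, the median centred signal of the large subunit minus that of the small one ran from -0.073 to 0.060 in LN and from -0.048 to 0.0093 in HN. Its mean was 0.0084 in LN and -0.016 in HN, a difference of 0.024 with a standard error of 0.032. LN fetus L8 had the lowest value and LN fetus L5 the highest, so the LN group spanned the whole HN range. Averaging the probes of each gene, instead of taking the brightest, brought the difference between the subunits to 0.0011, whereas array brightness (the median log2 signal before normalization) as a covariate, an alternative chosen after seeing the data, brought it to 0.10.

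MRPS30 (NM_001079595) had the largest difference among genes with small subunit symbols, although its protein sits in the large subunit in known structures. Its signals were 9.36, 8.63, 9.31 and 9.05 in LN and 8.99, 8.79, 8.87 and 8.67 in HN. LN fetus L6 was the lowest of all 8 and the other LN fetuses were the highest. The difference was 0.26 (standard error 0.18, limma adjusted p = 0.832), and 0.41 without L6 but 0.17 without L5. Counting MRPS30 and MRPS18A, which also sits there, with the large subunit gave the same medians for both subunits, 0.11 and 0.063.

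MRPS22 (NM_001046319), a mitochondria-specific protein, had the narrowest overlap of the groups among genes with small subunit symbols. Its signals were 9.37, 9.20, 9.39 and 9.23 in LN and 8.97, 9.21, 8.97 and 9.15 in HN. Only HN fetus L2 lay above the lowest LN fetus. The difference was 0.23 (standard error 0.11, limma adjusted p = 0.788, exact permutation p = 0.0571). MRPS7, which binds the ribosomal RNA in the head of the subunit, differed by 0.22 (standard error 0.12), and MRPS35 by 0.25 (standard error 0.19). For MRPS35, HN fetus L2 at 7.57 lay far below the others, which ran from 8.05 to 8.46, and without L2 the difference was 0.090.

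DAP3 (NM_001113294), a GTP-binding protein also known for a role in cell death, had signals of 9.39, 9.35, 9.77 and 9.40 in LN and 9.40, 9.45, 9.07 and 9.29 in HN. Apart from LN fetus L8 on the high side and HN fetus L3 on the low side, the fetuses of both groups lay together. The difference was 0.18 (standard error 0.14, limma adjusted p = 0.854), and it was 0.080 without L8 and 0.099 without L3. MRPS12, a protein of the decoding centre, differed by 0.057 (standard error 0.11), and by 0.0027 without LN fetus L8. The other probe of MRPS12 gave 0.20.

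The family of MRPS18 has 3 genes in mammals, which descend from 1 bacterial protein. MRPS18C differed by 0.14 (standard error 0.12; 0.088 without LN fetus L5), MRPS18B by 0.077 (standard error 0.15) and MRPS18A by 0.035 (standard error 0.15). The last of these was -0.071 without LN fetus L9, and MRPS18B was -0.016 without LN fetus L8. MRPS36, whose place in the ribosome is disputed and which is a subunit of the 2-oxoglutarate dehydrogenase complex, differed by -0.050 (standard error 0.12; -0.12 to -0.0052 with single fetuses left out).

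The lowest differences in the small subunit were those of MRPS28, MRPS25 and MRPS21. MRPS28 (NM_001046401) had signals of 12.46, 12.80, 12.56 and 12.78 in LN and 12.63, 12.62, 13.17 and 12.77 in HN. The difference of -0.15 (standard error 0.16) rested on HN fetus L3 and was -0.023 without it. MRPS25 differed by -0.12 (standard error 0.19), but by 0.045 without LN fetus L6. MRPS21 differed by -0.082 (standard error 0.13) at its brightest probe, and by -0.0087 without HN fetus L2. Its other probes gave 0.35 and 0.29, so the direction of MRPS21 depended on the probe. Over all the genes, 40 had more than 1 probe, and 7 of these had probes in both directions (MRPL4, MRPL11, MRPL19, MRPL49, MRPL53, MRPS21 and MRPS33). Of the 129 probes, 95 gave a positive difference. The lowest were probes of MRPL38 (-0.40) and MRPS9 (-0.23), named after their values were seen. The brightest probes of these genes gave -0.020 and -0.039.

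Genes for mitochondria-specific proteins had the larger median difference in both subunits, and this contrast was not tested. In the large subunit, 15 of 18 of them were higher in LN with a median of 0.15, beside 22 of 28 with a median of 0.091 for the homologues of bacterial proteins. Among small subunit symbols, where MRPS30 is counted by its name, 8 of 11 were higher with a median of 0.11, beside 14 of 18 with a median of 0.058.

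The level of the genes varied between fetuses within the groups. After each gene was centred on its mean over the 8 fetuses, the median over the 76 genes was 0.12 in L5, -0.081 in L6, 0.12 in L8 and 0.014 in L9. In HN it was -0.058 in L1, 0.0034 in L2, -0.093 in L3 and -0.033 in L10. Fetuses L5, L8 and L9 lay above all HN fetuses, while L6 lay below every HN fetus except L3. Fetus L8 had the highest signal for 26 genes and L5 for 24, and L6 had the lowest for 20 genes and L3 for 17. Taken by group, the highest of the 8 signals was in LN for 63 of the 76 genes, and the lowest was in HN for 48. These counts of extremes were not made over all detected genes, so they are not read as particular to these 76 genes. Without L6, 65 of 76 genes were higher in LN and the median difference was 0.14, while without L8 these were 52 and 0.061. Without L5, 54 genes were higher, and the medians were 0.065 for the large and 0.040 for the small subunit.

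**Figure D3:**
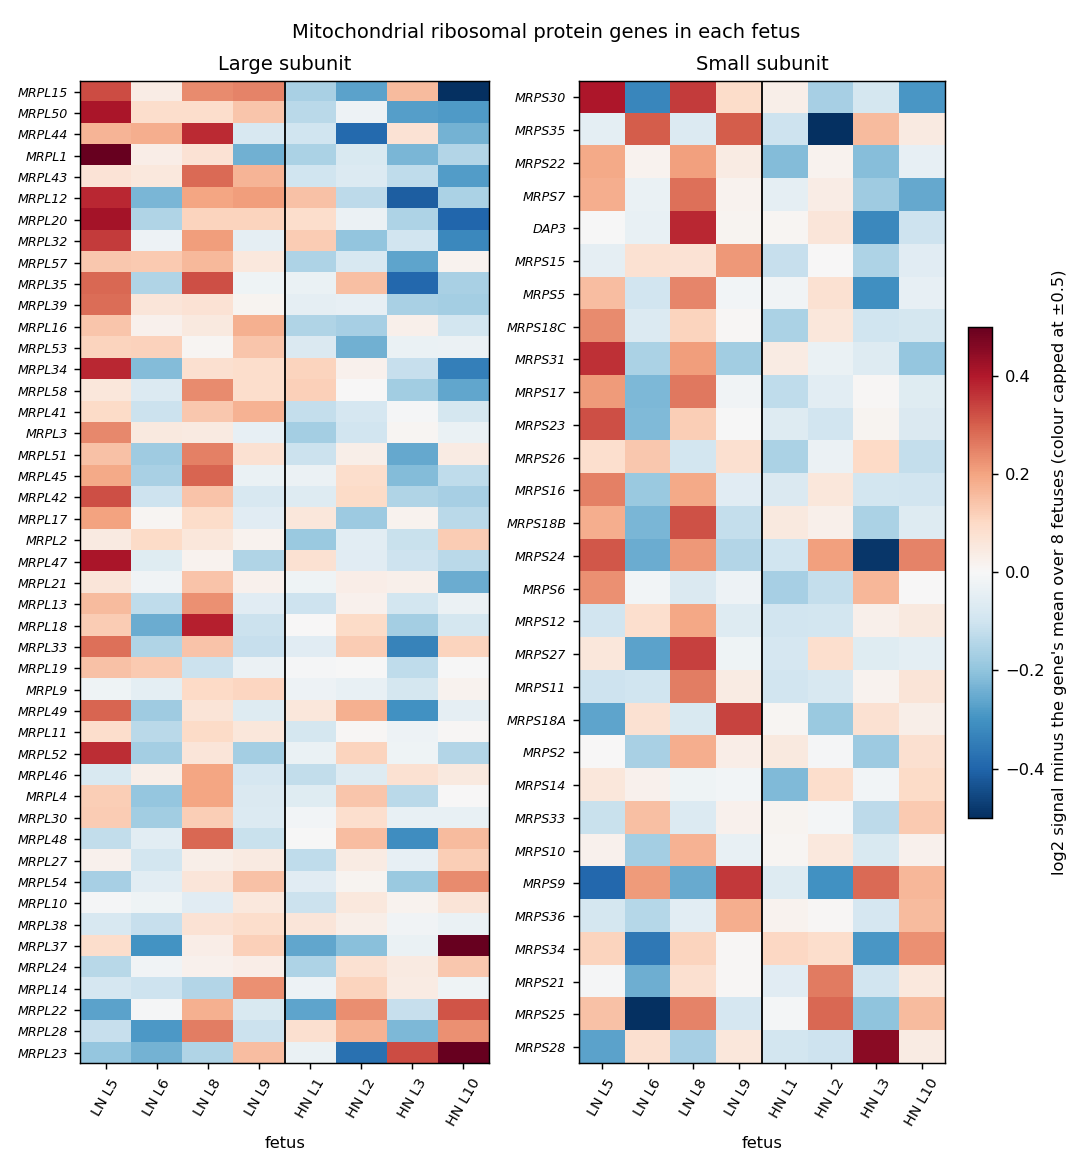
Log2 signal of each gene minus its mean over 8 fetuses, with fetuses in columns (LN left of the line, HN right) and genes in rows ordered by difference; red is above and blue below the mean, and the colour stops at ±0.5. The columns of L5 and L8 are mostly red, while that of L6 is blue for many genes although it is an LN fetus.

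The spread was wider in LN for 47 of the 76 genes, with a median SD of 0.17 in LN and 0.12 in HN. Among all detected genes these medians were 0.22 and 0.21, and 53.3% had the larger SD in LN. Without L6 the median SD in LN was 0.15, and the spread was wider in LN for 40 genes. The array of L6 was the dimmest before normalization, as given above. With array brightness as a covariate, 16 of 76 genes were higher at an unadjusted p of 0.05 (21.1%, beside 7.04% of all detected genes), and 0 passed an adjusted p of 0.05 by limma. The median difference of the large subunit was then 0.18, and that of the large minus small subunit 0.10.

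Other parts of the machinery for mitochondrial protein synthesis and import were set beside the ribosomal proteins, and 0 of their genes passed an adjusted p of 0.05. The 4 ribosomal subunits named outside the symbol rule were all higher in LN, with a median of 0.11, and the largest difference was that of PTCD3 (0.29, standard error 0.16), followed by CHCHD1 (0.18, standard error 0.13). Of the translation factors, 10 of 11 detected were higher with a median of 0.13. GFM2, which helps recycle the ribosome, differed by 0.25 (standard error 0.13), and the initiation factor MTIF3 by -0.19 (standard error 0.11). For genes of transcription and RNA handling the count was 14 of 17 and the median 0.13. There TEFM, the elongation factor of the mitochondrial RNA polymerase, differed by 0.47 (standard error 0.13, limma adjusted p = 0.760), with 7.91 to 8.15 in LN and 7.44 to 7.82 in HN. The groups did not overlap for TEFM (1 of 17 genes, beside 2.59% of all detected genes). PTCD2 differed by 0.24 (standard error 0.12).

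Of the assembly factors of the ribosome, 14 of 26 were higher with a median of 0.0088. Of them, C1QBP differed by 0.37 (standard error 0.11, limma adjusted p = 0.760) and the GTPase GTPBP10 by 0.32 (standard error 0.11, limma adjusted p = 0.760). For both of these every LN fetus lay above every HN fetus (2 of 26 genes, beside 2.59% of all detected genes). Of the mitochondrial aminoacyl-tRNA synthetases, which charge the transfer RNA, 9 of 16 were higher with a median of 0.030, and those of lowest p were NARS2 (0.24, standard error 0.10) and MARS2 (0.39, standard error 0.19).

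Of the genes for protein import, by which the ribosomal proteins reach the matrix, 22 of 25 were higher in LN with a median of 0.17. HSPA9, the matrix chaperone of the import motor, had signals from 13.18 to 13.39 in LN and from 12.82 to 13.06 in HN, a difference of 0.30 (standard error 0.11, limma adjusted p = 0.768). TIMM8A, a chaperone of the space between the membranes, differed by 0.32 (standard error 0.13). All 9 detected genes listed as outer membrane or mass markers were higher, with a median of 0.17. Those of lowest p were HSPE1 (0.34, standard error 0.12) and citrate synthase, CS (0.51, standard error 0.19). For CS, LN fetus L9 (11.885) lay among the HN fetuses (11.765 to 12.146). The smallest differences were those of VDAC1 (0.067, standard error 0.11), TFAM (0.039, standard error 0.13) and VDAC3 (0.011, standard error 0.14). Mitochondrial mass itself was not measured. For assembly factors of oxidative phosphorylation the count was 17 of 27 and the median 0.050, with NDUFAF4 at 0.73 (standard error 0.26) and COX14 at -0.27 (standard error 0.11). Every LN fetus lay below every HN fetus for COX14 (1 of 27 genes, beside 1.56% of all detected genes). Of 8 regulators of mitochondrial biogenesis 6 were higher, and the coactivators PPRC1 (0.43, standard error 0.20) and PPARGC1A (-0.40, standard error 0.22) differed in opposite directions.

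Of the cytosolic ribosomal proteins, which make the ribosome outside mitochondria, 64 of 82 genes were higher in LN (78%), with a median of 0.042 and 0 genes at an unadjusted p of 0.05 in either direction (beside 3.3% higher and 2.75% lower among all detected genes). RPL9 and RPS15A, named after their values were seen, separated the groups upwards, each with a difference of 0.18 (2 of 82 genes, beside 2.59% of all detected genes). Their median centred signal ran from 0.0060 to 0.058 in LN and from -0.066 to 0.065 in HN. In fetus L6 it was 0.035, where the mitochondrial ribosomal proteins lay at -0.081.

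**Figure D4:**
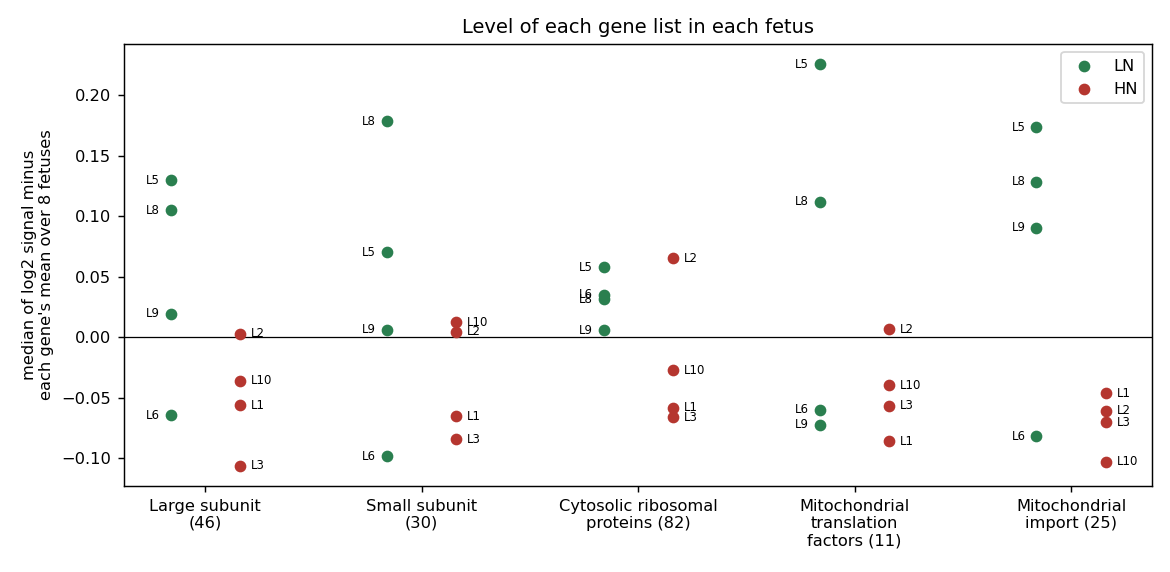
Median over the genes of a list of log2 signal minus each gene's mean over 8 fetuses, 1 point per fetus, with the number of genes under each list. Fetuses L5 and L8 lie high and L6 low for both subunits and for import genes, whereas L6 lies among the other LN fetuses for cytosolic ribosomal proteins.

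**Figure D5:**
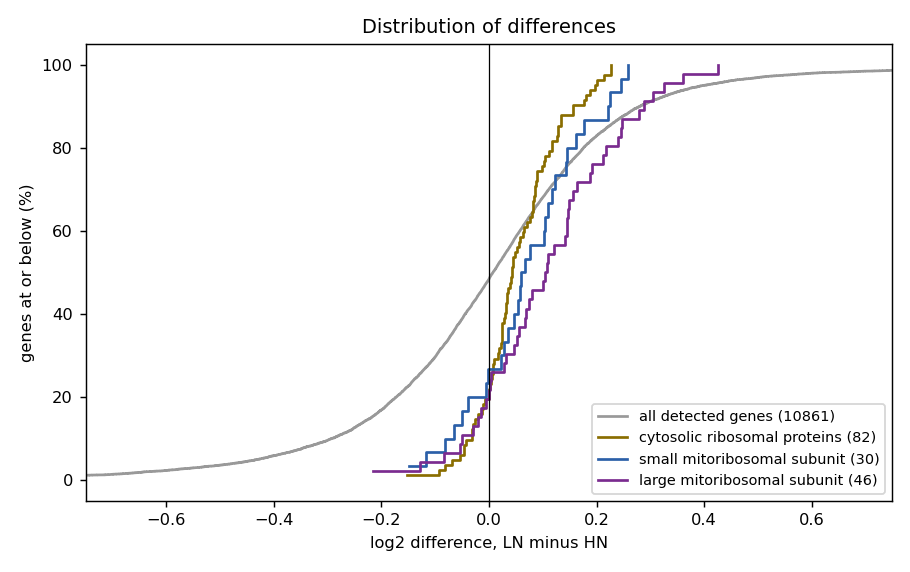
Share of genes (%) with an LN minus HN log2 difference at or below the value on the horizontal axis, for both mitoribosomal subunits, the cytosolic ribosomal proteins and all detected genes. The curves of the ribosomal lists are steeper than that of all genes and cross the middle of the vertical axis to the right of 0, at medians of 0.11, 0.063 and 0.042.

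Markers of other cell types were set beside these values. Of 8 erythroid markers 5 were detected (all higher in LN, median 1.32), and their median centred signal ran from -0.75 to 3.61 in LN, with L5 highest, and from -2.33 to 0.49 in HN. All 7 neutrophil markers were detected, 4 of them higher in LN at an unadjusted p of 0.05 (beside 3.3% of all detected genes) and 3 without overlap (beside 2.59%), with a median difference of 0.91, and their median centred signal ran from 0.14 to 0.98 in LN and from -1.38 to -0.011 in HN, without overlap. Among the neutrophil markers, LTF alone was lower in LN (-0.22, standard error 0.48). For Kupffer cell or macrophage markers the median was -0.11 (6 of 7 detected), for endothelial markers 0.10 (6 of 6), for stellate cell markers -0.23 (6 of 6), for lymphocyte markers -0.14 (4 of 6) and for cell cycle genes -0.30 (3 of 6). Of the cell cycle genes, PCNA differed by 0.27 (standard error 0.14), CDK1 by -0.30 (standard error 0.38) and CCNB1 by -0.37 (standard error 0.42). The part of these markers in the differences of the mitochondrial ribosomal proteins was not tested.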

How the data were processed

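RNA of 8 fetal livers (4 LN, 4 HN) was hybridised to 1-colour Agilent bovine arrays. The authors deposited scanner output with a background-subtracted intensity per spot (Agilent Feature Extraction 11.0.1.1, per the submitters' processing notes) and a table of log2 values for 31068 probes, which the authors quantile normalized. Only the intensities entered the main results, and the log2 table was an alternative. Here control spots and 16 probes with spots marked as outliers were dropped, replicate spots were averaged as log2 values, and quantile normalization was run over 43637 probes. Detection required a signal well above background on 4 or more of 8 arrays. By accession, 26743 probes were paired with RefSeq genes (reference table of assembly ARS-UCD2.0), and coordinates were omitted because the array was designed on another build. The detected probe of highest mean signal stood for its gene.

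Groups came from the sample labels. The LN group was set against the HN group by a 2-sided linear model in limma 3.58.1 (R 4.3.3; lmFit, eBayes) with Benjamini-Hochberg adjustment over detected probes. The functions were tested on simulated data, and single genes were also compared by an exact permutation test over 70 divisions. No covariate was used, since slide and group coincide. The number of arrays limits the precision. Genes named are those whose groups did not overlap, the 5 highest and 3 lowest differences per subunit symbol, genes picked by role, and the 2 of lowest p per other pathway list. The members, lists and tests were chosen with earlier results of these data known, and lists were written by hand. Alternatives were scaling to the 75th percentile, normexp (offset 50, from median spot and background signals), the authors' log2 table, no dim filter, detection on all 8 arrays, trend and robust eBayes, position on the slide as a block, the mean over probes, a Student's test per probe, both other subunit assignments, and each fetus left out. Array brightness as a covariate, and the count of separated genes under alternatives, were chosen after seeing the data.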

Additional observations from a re-analysis of the deposited data

Results flagged for a closer look

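In 66 groups of 4 values, from the named genes and the fetus medians of all members, of each subunit and of the cytosolic ribosomal proteins, 2 fetuses stood apart from the rest of their group by Dixon's criterion, where chance gives about 1 in 20 groups. The signal of MRPL50 in LN fetus L5 was 9.99, and the nearest other LN fetus was at 9.72 (gap over range 0.833). The signal of DAP3 in LN fetus L8 was 9.77, and the nearest other LN fetus was at 9.40 (gap over range 0.871). The difference of MRPL50 was 0.29 without L5, and that of DAP3 was 0.080 without L8.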

How the results depend on the processing

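The medians of all members and of both subunits, the difference between the subunits and the majority of genes with a higher signal in LN kept their direction under every alternative run. The number of genes at an adjusted p of 0.05 by limma was 0 throughout, beside 3 at an unadjusted p of 0.05. That number was 7 with normexp (9.21% of the genes, beside 4.73% of all detected genes), 9 without a filter on dim probes (11.8% beside 4.27%), 5 with trend and robust eBayes (6.58% beside 3.77%), 5 with the mean over probes (6.58% beside 3.75%), 9 by Student's test per probe (11.8% beside 4.37%, and 0 after Benjamini-Hochberg adjustment), 16 with array brightness as a covariate (21.1% beside 7.04%), 2 with the position on the slide as a block (2.63% beside 2.43%), and between 1 and 5 with each fetus left out (1.32% to 6.58%, beside 1.88% to 4.15%). The cause of these changes was not tested. The number of genes without overlap was 3 with the mean over probes (3.95%, beside 2.66% of all detected genes) and 6 with scaling to the 75th percentile (7.89% beside 2.4%). With array brightness as a covariate the median over the mitochondrial ribosomal protein genes was 0.16, that of the large subunit 0.18 and the difference between subunits 0.10. With each fetus left out, the median over all genes lay between 0.061 and 0.14, that of the large subunit between 0.065 and 0.14, that of the small subunit between 0.040 and 0.12, the difference between subunits between 0.019 and 0.057, and the number of genes higher in LN between 52 and 65. With scaling to the 75th percentile the median of all detected genes was -0.023 and 45.6% were higher in LN, while 78.9% of the mitochondrial ribosomal protein genes were. Single genes changed sign in 13 alternative values: MRPL22 (-0.19 without HN fetus L1 to 0.0077 without HN fetus L10), MRPS25 (-0.22 without LN fetus L8 to 0.045 without LN fetus L6, and 0.059 with brightness), MRPS21 (0.19 with the mean over probes), MRPS18A (-0.071 without LN fetus L9 to 0.13 without LN fetus L5, -0.020 without HN fetus L2, and -0.095 with brightness), MRPS18B (-0.016 without LN fetus L8 to 0.17 without LN fetus L6), MRPL11 (-0.046 with the mean over probes) and MRPL10 (0.017 with normexp, -0.054 without HN fetus L1, 0.0016 without LN fetus L8, 0.00082 without HN fetus L2 and 0.0048 without HN fetus L10). No paired analysis was made, since by the paper's methods dams were assigned at random to LN or HN, and the fetuses form no pairs. The block on slide position pairs arrays by their place and not by animal.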
